A study of Saccharomyces cerevisiae and Schizosaccharomyces pombe with 10 samples.

Results

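The small subunit ribosomal protein genes of budding yeast (Saccharomyces cerevisiae), named RPS with a number, encode the proteins of the small ribosomal subunit. They were examined here in long reads of nascent RNA, the RNA that is held on chromatin by transcribing polymerases. Of 6021 protein-coding genes in the R64 annotation, 56 carry such a name. A read was counted for a gene if it lay on the gene's strand and overlapped it more than any other gene, and reads wholly inside an intron that hosts a small nucleolar RNA (snoRNA) were left out. This gave 244 of the 101128 alignments in the pool. The cells were of strain BY4741, of mating type a, with the labelled alleles leu2D0, met15D0 and ura3D0 and no further treatment, grown at 30 °C in rich glucose medium and taken in exponential growth. The labels name 2 replicates of this group, but their alignments stand in a single pool that cannot be split by sample. There were thus no replicates to compare, no test between samples was possible, and the 95% intervals below cover counting error only. The other samples of the series, from fission yeast and from reporter strains, were not used here.

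A small subunit ribosomal protein binds the 18S rRNA during assembly in the nucleolus and helps to shape the mRNA channel, the decoding site or the surface of the finished subunit. Budding yeast keeps many of these genes as a pair of near-identical copies, A and B, left from an ancient genome duplication. Few yeast genes have introns, and ribosomal protein genes hold a large part of them, mostly as a single intron close to the start of the gene. An intron is removed by a cut after the last base of exon 1, followed by a cut after the last base of the intron that joins the exons.

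An adaptor was joined to the free 3' end of the RNA, so the base next to it is the last base of the molecule. It marks any free 3' end, also one not held by a polymerase. The adaptor is shown because every 3' end below rests on it. It opens with 5 random bases, given in lower case, and its fixed part is in capitals.
3' end adaptor: nnnnnCTGTAGGCACCATCAAT
A read whose 3' end lies past an intron shows whether that intron was already gone. A read whose 3' end lies inside an intron shows how far the RNA had grown, if it was still being made. Finished mRNA in the pool was not told apart from nascent RNA. The file gives no measure of how uniquely a read was placed, so the assignment to near-identical copies is uncertain.

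The 244 reads were 0.241% of all alignments (0.213 to 0.274) and 6.68% of the 3652 reads on protein-coding genes (5.92 to 7.54). The share of all alignments was 0.400% in the later movie and 0.156% in the earlier movies, and it was 1.93% with identical alignments counted once, since most repeats lay outside these genes. Their median aligned length was 281.5 nt, with quartiles of 184 and 449 nt, and the longest, on RPS4A, had 930 nt. The read names show 5 sequencing movies, 1 later and 4 earlier. The later movie gave 141 of the reads (median length 301 nt) and the earlier movies gave 103 (224 nt). Reads on these genes were 5.62% of the protein-coding reads of the later movie and 9.0% of those of the earlier movies. The 244 reads held 241 distinct alignments, so 3 were exact repeats, among them a read of RPS10B and a read of RPS18A. Of the genes that the strain lacks, LEU2, MET15 (listed as MET17) and URA3 had 0 reads each, and each count of 0 allows up to 3 reads. Of the genes of a cells, STE2, the alpha factor receptor, had 5 reads and MFA2, an a-factor gene, had 2, while MFA1 and BAR1 had 0. The alpha cell genes STE3, MF(ALPHA)1 and MF(ALPHA)2 also had 0. Only 28.9% of the protein-coding genes outside the ribosomal proteins had any read, so a count of 0 says little about the strain.

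Reads were spread thinly over the genes. Of the 56 genes, 48 had at least 1 read. There were 5 genes with 10 or more, 27 with 4 to 9 and 16 with 1 to 3. The 10 genes with most reads held 95 reads (38.9%). At such counts an exact Poisson interval spans several fold, and most neighbours in the order of genes cannot be told apart.

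The highest count was 12 reads. RPS15 (YOL040C, chromosome XV, 253149 to 253577, minus strand) encodes a head protein whose tail reaches the decoding site, and it had 11 reads (5.49 to 19.7). RPS1B (YML063W, chromosome XIII, 146482 to 147249, plus strand), for a protein beside the mRNA exit channel, also had 11. RPS12 (YOR369C, chromosome XV, 1028194 to 1028625, minus strand), for a protein of the beak of the head, and RPS31 (YLR167W, chromosome XII, 498947 to 499405, plus strand), which makes a fusion of ubiquitin to a ribosomal protein, had 10 each (4.80 to 18.4). These intervals overlap, so no order among the leading genes is shown.

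The next genes were grouped by where their proteins sit. Among proteins around the mRNA channel and the decoding site, RPS9A had 5 reads and RPS9B 4, RPS2 and RPS3 had 4 each, and RPS23A and RPS23B 3 each. Around the exit of the channel and on the platform, RPS1A had 9 reads, RPS0A 4 and RPS0B 7, RPS14A 4 and RPS14B 6, and RPS26A 5 and RPS26B 6. Among the other proteins of the head, RPS18A had 8 reads and RPS19B 8, RPS29A had 5, and RPS10B and RPS16A 4 each. RPS20, whose protein is ubiquitylated when yeast ribosomes collide, had 1. In the body of the subunit, RPS13 had 8 reads, RPS4A and RPS4B 7 each, RPS7A 7 and RPS7B 5, and RPS22A 5. RPS6A and RPS6B, for a protein that is phosphorylated downstream of the TOR kinase, had 2 each.

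No read was assigned to 8 genes, among them RPS21B, RPS25A, RPS25B, RPS27A, RPS27B, RPS28B and RPS29B, and each count of 0 allows up to 3 reads. RPS25 and RPS27 were thus the pairs with no read on either copy. Only 1 read lay on the opposite strand of any of the 56 genes, 74 nt at the end of RPS27A (chromosome XI, 159129 to 159202).

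**Figure D1:**
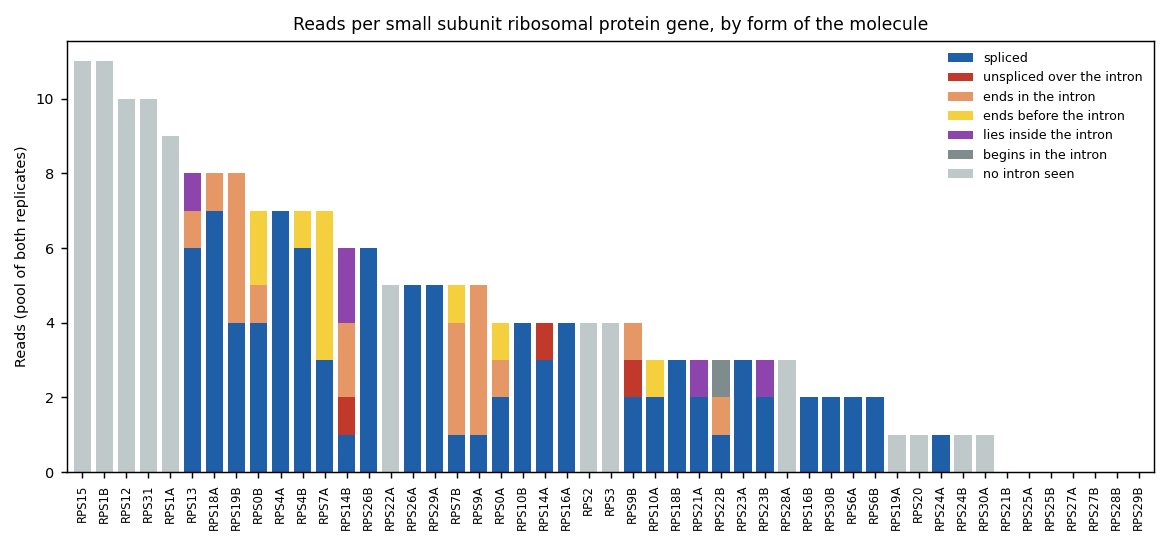
Reads on each of 49 genes, in order of count, stacked by the form of the molecule at the gene's intron. RPS15 and RPS1B stand at 11 reads. RPS14A, RPS14B and RPS9B have an unspliced read each, and the genes at the right have 0 reads. A gene shown with no intron seen may still have one, as RPS19A, RPS24B and RPS30A do.

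As a family the small subunit genes held about as many reads for their length as those of the large subunit and its stalk (RPL and RPP). Per kilobase of annotated span they had 6.03 reads, against 5.86 for the 82 RPL and RPP genes (367 reads) and 0.345 for the 5883 other protein-coding genes (3041 reads). The median was 4 reads per gene in both ribosomal families and 0 in the others. At least 1 read was found on 85.7% of the small subunit genes, against 93.9% of the RPL and RPP genes and 28.9% of the other genes. ASC1, whose protein binds the finished small subunit and is not named RPS, had 5 reads.

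Most pairs had reads on both copies. The 56 genes form 24 pairs and 8 genes without a copy. This was so in 18 pairs. Reads lay on 1 copy alone in 4 pairs, among them RPS21 (3 reads), RPS28 (3) and RPS29 (5), each on the A copy. In the 9 pairs with at least 10 reads, 64 of 122 reads (52.5%, exact interval 43.2 to 61.6) were on the A copy, against 59.2% of 130 reads (50.3 to 67.8) in the 10 RPL and RPP pairs with that many. In 0 of these 9 pairs did the exact interval of the A share leave out 50%, against 4 of the 10 RPL and RPP pairs. Over all 19 pairs the share was 21.1%. That difference between the families was not tested.

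RPS1, the pair with most reads, had 9 on A and 11 on B (A share 45.0%, 23.1 to 68.5). The movies differed for this pair: the later movie had 7 on A and 3 on B, and the earlier movies had 2 on A and 8 on B. RPS18, whose protein takes part in a contact with the large subunit, had 8 on A and 3 on B (72.7%, 39.0 to 94.0). RPS4 had 7 on each copy. Other pairs with 10 or more reads were RPS0 with 4 on A and 7 on B, RPS7 with 7 and 5, RPS14 with 4 and 6, and RPS26 with 5 and 6. Lowering the minimum to 5 reads gave an interval that leaves out 50% in 1 of 16 pairs, RPS19, against 5 of 31 RPL and RPP pairs (12.8% over both). RPS19, whose human counterpart is mutated in Diamond-Blackfan anaemia, had 1 read on A and 8 on B (11.1%, 0.281 to 48.3), and it was singled out after its value was seen.

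**Figure D2:**
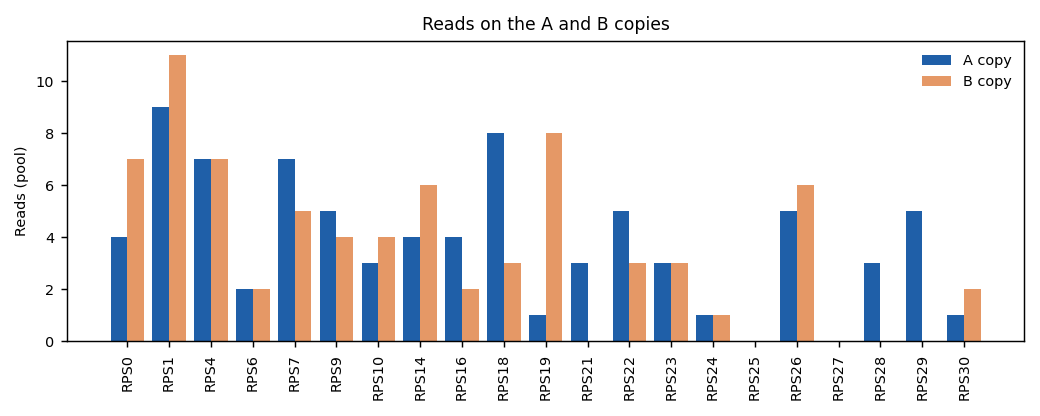
Reads on the A copy (left bar) and the B copy (right bar) of 21 pairs. RPS18 stands at 8 on A and 3 on B, RPS19 at 1 and 8, and RPS4 is even. RPS25 and RPS27 have 0 reads on both copies.

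The introns of these genes were read from the alignments themselves, as gaps of 30 to 3000 nt. Such a gap was seen in 34 genes at 35 introns, with a median length of 401 nt (256 to 557). In 30 genes the intron lay within the coding region. It followed a median of 24 coding nt (3 to 144), and in 17 of the 30 genes it began within 30 nt of the start codon. In RPS24A and RPS30B the intron follows the first 3 coding bases, so exon 1 ends with the start codon. In RPS7A and RPS7B it comes after 144. Another 4 genes, among them RPS26A, RPS26B and RPS29A, had their intron before the start codon, and RPS22B had 1 intron there and another in the coding region.

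The copies of a pair kept the place of the intron more than its length. In 12 pairs an intron in the coding region was seen in both copies. In 11 of them it lay after the same number of coding bases, and in 10 the coding length without the intron was equal. The exceptions were RPS14, with the intron after 7 coding bases in A and 10 in B and coding lengths of 414 and 417 nt, and RPS9, with coding lengths of 594 nt in A and 588 nt in B. Intron length differed between copies by a median of 70 nt (13 to 172). RPS16, for a protein whose tail reaches the P-site tRNA, had introns of 544 nt in A and 432 nt in B while encoding equal lengths. RPS4 showed the smallest difference, 256 nt in A and 269 nt in B.

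**Figure D3:**
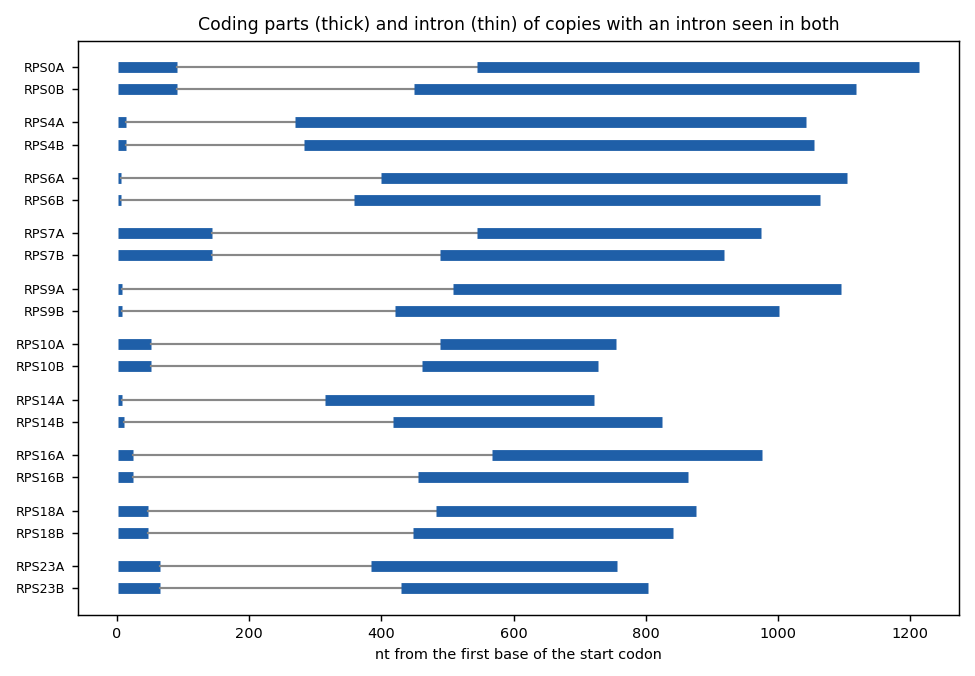
Coding parts (thick) and intron (thin) of 10 pairs with a coding-region intron seen in both copies, in nt from the first base of the start codon. Exon 1 ends at the same coding place in each pair drawn except RPS14, while intron lengths differ, as in RPS16 (544 nt in A, 432 nt in B).

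At introns seen as a gap, nearly all molecules that reached past the intron had lost it. Reads were informative where they started ahead of the intron and reached beyond its last base. Over the 20 introns seen as a gap in at least 3 reads, 100 of 102 informative reads (98.0%, 93.1 to 99.5) were spliced. The 26 RPL and RPP introns found in the same way had 135 of 142 (95.1%, 90.2 to 97.6), a difference of 2.97 percentage points with an interval of -2.55 to 8.07 that holds 0. An intron entered these sets only with at least 3 spliced reads, which in itself favours a high share. Introns never seen spliced are missing from both, and introns seen spliced in fewer reads, such as those of RPS14B and RPS9B, were left out. With all 35 introns the count was 124 of 128 (96.9%, 92.2 to 98.8).

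Most single introns were spliced in every informative read. RPS4A and RPS18A had 7 of 7 (64.6 to 100%), and RPS4B, RPS13 and RPS26B had 6 of 6. RPS26A and RPS29A had 5 of 5. Counts of 4 of 4 were found for RPS0B, RPS10B, RPS16A and RPS19B, and counts of 3 of 3 for RPS7A, RPS18B and RPS23A. The counts of RPS10B and RPS18A each include an exact repeat. Of the 20 introns 18 were spliced in every such read, and of all 35 introns 31 were. The minimum of 3 spliced reads in part sets these counts for the 20 introns. RPS14A was not, with 3 of 4 (75%, 30.1 to 95.4), and its interval is wide. The introns before the start codon had 20 of 20 (83.9 to 100%), and the coding-region introns 80 of 82 (97.6%, 91.5 to 99.3).

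Over all 35 introns there were 4 unspliced reads among the informative ones. RPS14A (intron III:177907-178213) gave 1 of 472 nt that ended 137 nt past the intron. RPS14B (intron X:73797-74204) gave 1 of 493 nt that ended 45 nt past it, beside 1 spliced read. RPS9B (intron II:604515-604927) gave 1 of 740 nt that ended 297 nt past it, beside 2 spliced reads. All 4 ended before the stop codon. A read of RPS22B that began inside its intron and ran past it is not among them. Nor is the unbroken read of RPS30A, where no intron was seen. Both are described below. Rps14, the protein of the RPS14 pair, is known in yeast to bind the precursor RNA of RPS14B and to hold back its splicing.

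All 4 unspliced reads came from the earlier movies, where they were 4 of 47 informative reads (8.51%, 3.36 to 19.9), against 0 of 81 in the later movie (0 to 4.53%). Reads of the later movie were longer, and the part of read length in this difference was not tested. An unspliced molecule is longer than its spliced form by the length of the intron. The unspliced reads had 472 to 740 nt, and the upper quartile of all reads on these genes was 449 nt. The part of a loss of long molecules in the low count of unspliced reads was not tested.

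Spliced molecules were found with the 3' end close behind the intron. The nearest spliced 3' ends lay 26 nt past the intron in RPS9B, 38 nt in RPS0A and in the second intron of RPS22B, and 48 nt in RPS4B. Over the 20 introns, spliced reads ended a median of 248 nt past the intron (48 to 897). The bins by distance were taken over all 35 introns, so that they hold the nearest ends and all 4 unspliced reads. Up to 50 nt past the intron 4 of 5 informative reads were spliced (80%, 37.6 to 96.4), the other being the RPS14B read. Beyond that and up to 100 nt, 12 of 13 were spliced (92.3%, 66.7 to 98.6), and between 100 and 200 nt, 33 of 34 (97.1%, 85.1 to 99.5). Between 200 and 500 nt 55 of 56 were spliced (98.2%, 90.6 to 99.7), the other being the RPS9B read, and beyond 500 nt all 20 (83.9 to 100%). Over the 20 introns alone the counts in these 5 bins were 1 of 1, 11 of 12, 25 of 26, 50 of 50 and 13 of 13. The intervals of these bins overlap, so no trend with distance is shown at this depth.

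**Figure D4:**
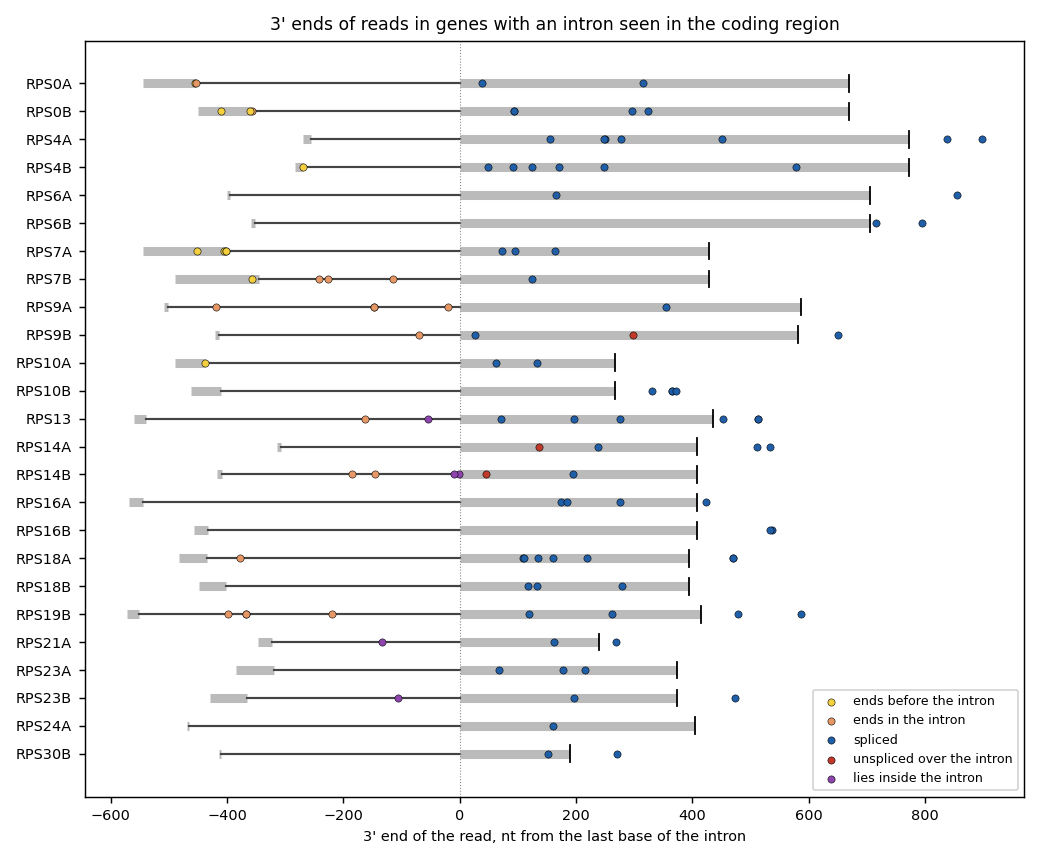
The 3' end of each read in 25 genes with an intron seen in the coding region, in nt from the last base of the intron, with exons as grey bars, the intron as a thin line and the stop codon as a tick. RPS22B is not drawn. Blue points (spliced) fill exon 2 and the region past the stop codon, red points (unspliced) lie in exon 2, and orange points end inside the intron, as 4 of 5 reads of RPS9A do.

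Some molecules ended inside an intron. There were 23 such reads in 14 genes, which began before the intron and ended a median of 54.4% of the way through it. They include a read each of RPS0A and RPS0B that ended only 2 nt into the intron and is counted again below, near the end of exon 1. Cutting each intron into 4 equal parts, from its start, gave 5, 6, 9 and 3 of these 3' ends. RPS9A (XVI:404957-405457), for a protein of the mRNA entry channel, had 4 of its 5 reads there, ending 82, 353, 354 and 481 nt into an intron of 501 nt. The read that ended at 82 nt was 84 nt long, so it began only just ahead of the intron. RPS19B had 4 of 8 that ended in its intron, at 152, 183, 183 and 332 nt into 551 nt. RPS7B had 3 of 5, ending 103, 118 and 231 nt into 345 nt. By contrast RPS4A and RPS16A, with introns of 256 and 544 nt, had 0 of 7 and 0 of 4. Of these 23 reads, 10 came from the later movie and 13 from the earlier movies. Ends in or ahead of an intron before the start codon could not be counted, because a read had to overlap the span from start to stop codon.

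A few 3' ends fell exactly on the last base of exon 1. This was seen in 5 of the 33 reads whose 3' end lay before or in an intron (15.2%, 6.65 to 30.9): 2 in RPS7A and 1 each in RPS0A, RPS4B and RPS10A. Within 2 nt of that base there were 8 of 33, the others being 2 in RPS0B and 1 in RPS0A. From 3 to 22 nt away on either side there were 2 of 33. In the RPL and RPP genes the counts were 2 of 42 exactly on that base and 3 of 42 within 2 nt. This place was singled out after the values had been seen.

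Another 7 reads lay wholly inside an intron that holds no annotated snoRNA, among them 2 in RPS14B and 1 each in RPS13, RPS21A and RPS23B. In 5 of the 7 the 5' end lay within 5 nt of the first intron base. A read of RPS14B began on that base and covered 407 of the 408 nt of its intron. The other RPS14B read began 64 nt into the intron and ended 10 nt before its last base. RPS13 gave a read of 471 nt in an intron of 539 nt.

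By region, the 30 genes with an intron seen in the coding region had 148 reads. Exon 1, counted from the start codon, held 10 of the 3' ends (6.76%), the intron 30 (20.3%), exon 2 75 (50.7%) and the region past the stop codon 33. Per kilobase of sequence this was 8.23 ends in exon 1, 2.47 in the intron and 5.50 in exon 2. Of the 10 ends in exon 1, 5 lay exactly on its last base, and the 30 in the intron include the 7 reads wholly inside one. These regions are not sampled alike, since a read of a spliced molecule cannot end in the intron.

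RPS22B (YLR367W, chromosome XII, 856442 to 857317), whose protein belongs to the body of the subunit, holds the snoRNA gene SNR44 in its coding-region intron (856575 to 857057). Its 3 counted reads were all different. The first, of 229 nt, lacked both introns and ended 38 nt past the second. The second, of 386 nt, ran unbroken from 41 nt before that intron to 1 nt before the end of SNR44. The third, of 463 nt, began 1 nt before the start of SNR44 and ran through the rest of the intron to 114 nt past it.

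In 3 genes that had reads and are known to have an intron in the coding region, none was seen. The single read of RPS30A (YLR287C-A, chromosome XII, 712537 to 713158) ran unbroken for 456 nt, from 48 to 504 nt past the start codon within a span of 622 nt. The coding length of its copy RPS30B is 192 nt, so this read cannot be all coding sequence if the copies are of like length. The single read of RPS19A ended 180 nt past the start codon with no gap, where RPS19B has its intron after 20 coding nt. The single read of RPS24B ended at 134 nt with no gap, where RPS24A has its intron after 3.

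Genes with and without an intron in the coding region had similar numbers of reads. The 36 genes with one had 151 reads, with a median of 4 per gene (0 to 12). The 20 genes without one had 93 reads, with a median of 4.5 (0 to 11). Because spans with introns are longer, the first class had 4.81 reads per kilobase of span and the second 10.2. Reads began upstream of the start codon in 89.4% of the first class and 92.5% of the second. At least 1 read was found on 33 of the 36 genes and on 15 of the 20. The later movie gave 85 of the 151 reads and 56 of the 93.

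Most reads began a short way before the coding region. Of the 244 reads, 221 (90.6%, 86.3 to 93.6) began upstream of the start codon. In genes without an intron before the start codon such reads began at a median of -25 nt from the start codon, with quartiles of -36 and -19 nt (n = 200 reads). RPS26B gave the clearest case, with all 6 reads beginning on the same base, at -382 nt, before an intron of 361 nt. The median stood at -68 nt in RPS12 and at -42 nt in RPS31, over all their reads.

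3' ends were spread along the genes, with a share past the stop codon. In 58 of 244 reads (23.8%, 18.9 to 29.5) the 3' end lay past the stop codon, by a median of 79.5 nt (8 to 171). Of these, 45 lay 50 to 200 nt past it, 13 lay closer and 0 lay farther. The share was 29.1% in the later movie and 16.5% in the earlier movies. The share was 21.9% (16 to 29.1) in genes with an intron in the coding region and 26.9% (18.9 to 36.7) in those without, a difference of -5.03 points with an interval of -16.4 to 5.74 that holds 0. Within the second class the 4 genes with an intron before the start codon had 10 of 20 reads past the stop codon (50%, 29.9 to 70.1), and the genes with no intron seen had 15 of 73 (20.5%, 12.9 to 31.2). A read that ended ahead of the start codon was not counted, as it did not overlap the span. In those 4 genes this leaves out ends in the intron and in the exon before it, which raises their share. RPS29A, among them, also spans only 171 nt. For genes with a coding-region intron against genes with no intron seen alone, the difference was 1.31 points (-10.8 to 11.9). Its direction thus depends on how the second class is drawn. Spliced reads ended past the stop codon in 43 of 123 cases (35.0%, 27.1 to 43.7) and unspliced reads in 0 of 4 (up to 49%), so these cannot be told apart.

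Against the other families, 22.1% of RPL and RPP reads ended past the stop codon, a difference of 1.70 points (-4.97 to 8.65), and 6.12% of the reads of other protein-coding genes, a difference of 17.7 points (12.7 to 23.4). Ribosomal protein genes are short, so genes within the same range of span were also compared. The span includes the intron, which spliced RNA lacks, and the range is wide, so the length of the RNA was not matched. Among genes with spans in the range of the small subunit genes (171 to 1214 nt), the shares were 23.8% here, 20.2% for RPL and RPP and 12.4% for other genes (1246 reads). Polyadenylated RNA and RNA still held by polymerase past the stop codon cannot be told apart in these alignments.

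Single genes showed how 3' ends lay along the transcript. In RPS4A the 7 reads, all spliced, ended at 425, 518, 519, 547, 720, 1107 and 1167 nt from the start codon on the genome, the last 2 being 65 and 125 nt past the stop codon. RPS10B had all 4 reads past the stop codon, at 65, 99, 99 and 106 nt, and RPS29A had 4 of 5, at 18, 30, 75 and 75 nt. The RPS10B reads at 99 nt were identical alignments. RPS22A, whose gene lies next to RPS14B, had 4 of 5, at 35, 107, 124 and 150 nt.

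Of the genes with no intron seen, 11 had reads, 73 in all, and 34 of these (46.6%, 35.6 to 57.9) ended within 200 nt of the start codon. RPS1B had 7 of its 11 there, at 19, 52, 88, 93, 94, 123 and 195 nt, and the rest at 352, 478, 484 and 834 nt, the last being 66 nt past the stop codon. RPS1A, of equal span, had reads ending at 86, 110, 204, 209, 266, 299, 326, 370 and 553 nt and none past the stop codon. The ends of the RPS1 copies overlap.

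RPS15 had 3' ends at 54, 69, 102, 187, 188, 200, 332, 353, 522, 525 and 537 nt, the last 3 being 93, 96 and 108 nt past the stop codon. RPS12 likewise had a group of 3 at 70, 78 and 90 nt past the stop codon, apart from 7 reads between 51 and 245 nt. RPS31 had ends from 4 to 528 nt, 2 of them past the stop codon by 8 and 69 nt. In RPS15 and RPS12 there was thus a stretch before and at the stop codon with no 3' end, between 353 and 522 nt and between 245 and 502 nt. Over all 56 genes 11 positions were shared by 2 reads each, exact repeats included, and none by more.

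**Figure D5:**
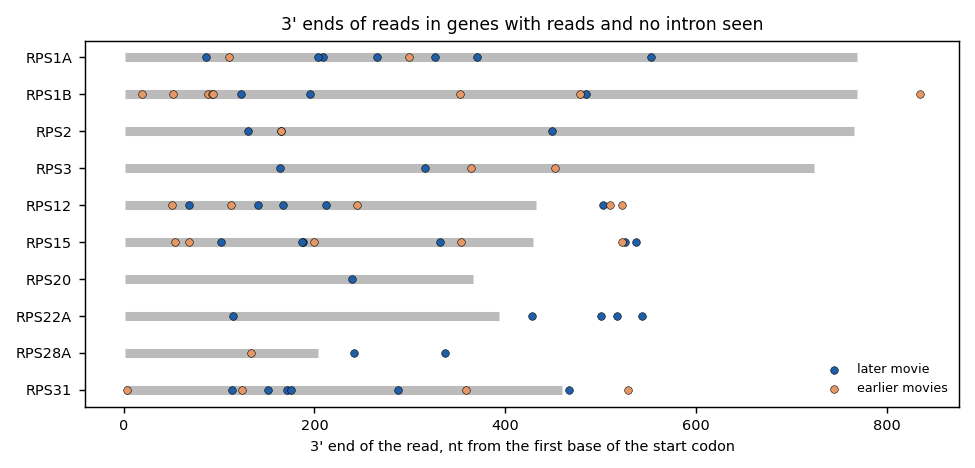
The 3' end of each read in 10 genes with reads and no intron seen, in nt from the first base of the start codon, with the coding span as a grey bar and points coloured by movie (later, earlier). RPS1A and RPS1B fill the front of their span, while RPS12, RPS15 and RPS22A have a group of ends 35 to 150 nt past the stop codon.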

How the data were processed

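Nascent RNA of S. cerevisiae was sequenced on a Pacific Biosciences instrument, per the labels' protocols. The deposited file holds genome alignments of both replicates in 1 pool, 1 line per alignment, with start, end and aligned blocks. Its score field, deposited with the value 40 in every line, was not used. Build sacCer3 and cutadapt 1.8 are named in the submitters' processing notes. The aligner was not given in the sources used here.

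Genes came from a RefSeq table of assembly R64, which gives spans from start to stop codon, and strands came from the locus tags. Coordinates count from 1. Alignments were assigned by largest same-strand overlap. A read was spliced if its gap matched the intron at each end to within 3 nt, and unspliced if an unbroken block covered the intron. Random adaptor bases were not used, so PCR copies could not be removed. Intervals are Wilson for shares, Newcombe for differences, and exact for counts and copy shares, computed in Python 3.11.15 with scipy 1.17.1. For a count of 0 the upper limit was set at 3 reads and is not the exact limit used for other counts. The scripts were tested on simulated reads. Named genes were the 30 with most reads, pairs with at least 10 reads, introns in at least 3 reads, and genes with unspliced or 0 reads. Others were named after their values were seen. Some genes are not reported here by name and are left out of the figures, while totals over all genes include them.

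The plan classed genes by protein length, for which no table was at hand. They were classed by general knowledge and checked against the files. All 20 genes classed as having no intron in the coding region had a span divisible by 3 and no gap there. Of the other 36, 30 showed a gap, 4 had a span not divisible by 3, and 2 rest on general knowledge alone. The genes and lists were chosen with earlier results of these data known. Alternatives included the later and the earlier movies alone, identical alignments counted once, and other minimums for introns and pairs.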

Additional observations from a re-analysis of the deposited data

Results flagged for a closer look

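Inside the RPS22B intron that holds SNR44 lay 1697 reads that were assigned to RPS22B and left out of the counts above, against 3 reads counted for RPS22B itself. They stood out as a signal in data that the comparisons do not use. Of these reads, 95.1% ended within 5 nt of the annotated end of SNR44 (chromosome XII, 856710 to 856920) and 99.9% began within 5 nt of its start. They held 48 distinct alignments. Another 526 reads were assigned to SNR44 and are not among the 1697. A read that overlapped both genes equally went to the shorter, SNR44.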

How the results depend on the processing

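Across 22 settings, 93 of 110 recomputed values stayed close to the reported one and 17 moved. In the later movie alone there were 141 reads, 0.400% of all alignments and 5.62% of protein-coding reads. In the earlier movies alone there were 103 reads, 0.156% and 9.0%. Counting identical alignments once raised the share of all alignments to 1.93%. The share spliced was 100% in the later movie, in which all 20 introns (100%, against 90% in the pool) were spliced in every read, and 100% for introns before the start codon alone, a split chosen after seeing the data. With a minimum of 5 reads, 1 of 16 pairs, RPS19, had an interval that left out an even share, against 0 of 9 with a minimum of 10. The median difference in reads between genes with and without a coding-region intron was -0.5 reads, and -5.5 per kilobase. The difference in reads was 0.5 in the earlier movies alone, with its sign reversed, and this was within the margin counted as close. The share past the stop codon was 16.5% in the earlier movies. The median distance past the intron was 187 nt in the earlier movies, and also 187 nt with ends past the stop codon left out. The cause of these shifts was not tested.

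Depth limits most statements: counts of 1 to 12 reads a gene show no order among genes, and introns never seen spliced are missing. No paired analysis was possible because the pool cannot be split by replicate.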
